A study of Mus musculus with 4 samples.

Results

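Acetylation of histone H4 at lysine 16 (H4K16ac) was described in 2 windows of mouse liver chromatin that were set around the Cyp4a and Cyp2d gene clusters. The clusters were represented by 7 genes, namely Cyp4a10, Cyp4a12a and Cyp4a14 for the Cyp4a cluster, and Cyp2d9, Cyp2d10, Cyp2d22 and Cyp2d26 for the Cyp2d cluster. An island, a stretch of the genome where ChIP reads exceeded the input, was counted when it overlapped the Cyp4a window (chromosome 4, 114.70 to 115.50 Mb) or the Cyp2d window (chromosome 15, 82.00 to 82.60 Mb). This gave 59 islands, 33 of them from the SIRT1 KO mouse (mutant, MT) and 26 from the wild type (WT) mouse, out of 28377 islands in the MT list and 26227 in the WT list. Each window was compared with the 1 Mb on its left (lower coordinates) and on its right.

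H4K16ac was profiled by ChIP-Seq in liver of 1 MT and 1 WT mouse, each 3 months old and of a mixed background (129/FVB/Black Swiss). The study describes a further pair of mice for ChIP-Seq, which was not analysed here. The MT mouse carried a targeted deletion in Sirt1, and both livers were collected in the morning. The study states that the mutant mice of these experiments were males and that genotypes were compared within the same sex. Each mouse gave 1 ChIP and 1 input library, input being chromatin sequenced without immunoprecipitation. With 1 library per group no difference between the genotypes has a replicate check, so no p-value was computed for any of them, and every interval below is a 95% interval that covers counting error only. The design asked whether loss of SIRT1 goes together with altered H4K16ac at genes.

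The submitters' processing notes name the mouse build mm8, whereas the window limits were set taking the coordinates as mm9. No annotation of either build was used, so it was not analysed which island lies at which gene, nor whether each of the 7 genes lies within its window. Islands are therefore named by position, in the coordinates of the lists. For the same reason neither the Sirt1 deletion nor the liver identity of the samples was checked from these data.

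H4K16ac is a mark of open chromatin, because the acetyl group hinders the packing of nucleosome arrays, and SIRT1 is a deacetylase that can remove it. Cyp4a enzymes are cytochrome P450s that hydroxylate fatty acids at the omega end. Cyp4a10 and Cyp4a14 are classical targets of PPARA, the nuclear receptor that senses fatty acids in fasted liver, and Cyp4a12a is expressed mainly in male liver. Cyp2d enzymes belong to the P450 family that metabolises many drugs in humans, and Cyp2d9 is a steroid hydroxylase with higher expression in male liver. In the RefSeq gene order each cluster holds 8 protein-coding genes. From one end the Cyp4a cluster runs Cyp4a29, Cyp4a12a, Cyp4a12b, Cyp4a30b, Cyp4a14, Cyp4a10, Cyp4a31 and Cyp4a32, between Cyp4x1 and Cyp4b1. The Cyp2d cluster runs Cyp2d22, Cyp2d11, Cyp2d10, Cyp2d9, Cyp2d12, Cyp2d34, Cyp2d40 and Cyp2d26, between Ndufa6 and Tcf20. Tdg-ps, which is not counted, lies between Cyp2d9 and Cyp2d12.

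Neighbouring copies such as these can share long runs of sequence, which bears on where a short ChIP read can be placed. How reads matching several places were treated is not given in the sources used here. RefSeq sequences upstream of the gene start were matched for 3 of the 7 genes, Cyp2d10, Cyp2d9 and Cyp2d26, and their 250 bases before the start are printed 5′ to 3′ to show how alike neighbouring copies are. Their coordinates are those of GRCm38.p6, at chr15:82407195-82407444 for Cyp2d10 (minus strand), chr15:82452127-82452376 for Cyp2d9 (plus strand) and chr15:82794246-82794495 for Cyp2d26 (minus strand), and cannot be set against the island coordinates. Capitals mark matches to 2 motifs, the direct repeat AGGNCANAGGNCA, a form of the DR1 element bound by nuclear receptors such as PPARA and HNF4A, and TATAA, with both strands searched and overlapping matches merged.
Cyp2d10: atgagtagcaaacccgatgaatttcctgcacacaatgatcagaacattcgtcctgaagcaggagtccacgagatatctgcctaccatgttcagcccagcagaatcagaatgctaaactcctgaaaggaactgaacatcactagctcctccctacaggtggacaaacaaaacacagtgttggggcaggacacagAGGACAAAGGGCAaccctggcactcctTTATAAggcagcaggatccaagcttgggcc
Cyp2d9: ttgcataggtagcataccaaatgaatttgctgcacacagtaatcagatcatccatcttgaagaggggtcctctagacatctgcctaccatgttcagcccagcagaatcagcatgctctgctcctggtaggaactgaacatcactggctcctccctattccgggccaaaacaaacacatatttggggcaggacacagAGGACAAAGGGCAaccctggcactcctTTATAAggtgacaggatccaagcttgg
Cyp2d26: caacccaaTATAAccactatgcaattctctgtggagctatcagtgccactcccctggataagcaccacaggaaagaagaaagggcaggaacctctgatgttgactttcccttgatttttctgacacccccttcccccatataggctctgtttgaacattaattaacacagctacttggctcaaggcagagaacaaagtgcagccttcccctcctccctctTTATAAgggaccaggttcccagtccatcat

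Cyp2d10 and Cyp2d9 were identical at 212 of 256 alignment columns (82.8%), with an unbroken identical run of 51 bases. Each of them resembled Cyp2d26 far less, with 54.4% and 53.6% identical columns and a longest shared run of 10 bases. The run of 51 bases holds the only DR1 match of either gene, which read AGGACAAAGGGCA and lay from 57 to 45 bases before the start in Cyp2d10 and from 54 to 42 in Cyp2d9. This motif was present in 111 of 32851 mouse upstream windows (0.338%), and TATAA, which all 3 genes carried close to the start, in 22.8%. The motifs were chosen after the sequences had been seen, and a match is a description of letters, not of a bound site.

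The libraries were of similar depth if input density is taken as its measure. The ChIP library was 1.06 times the size of its input in MT and 1.10 times in WT, as recovered from the fold over input, and the MT ChIP library was 1.05 times the WT ChIP library with the input density of the 14719 shared regions, at which islands of both lists meet, taken as the measure of depth. The islands of the MT list held 2916128 ChIP reads and those of the WT list 2264125, a ratio of 1.29. Setting these totals equal is the other scaling used below. The MT islands covered 1.25 times the length of the WT islands over the whole genome. 

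The Cyp2d window was several times more densely covered by H4K16ac islands than the Cyp4a window, in both mice. In the Cyp4a window the islands covered 22.6 kb or 2.83% in MT (Wilson interval 2.36 to 3.39%) and 17.0 kb or 2.13% in WT (1.72 to 2.62%). In the Cyp2d window they covered 64.6 kb or 10.8% in MT (9.71 to 11.9%) and 45.8 kb or 7.63% in WT (6.74 to 8.64%). These intervals treat the 200 bp steps of the caller as independent, which steps of 1 island are not, and are therefore too narrow. Genome tiles of the same length as the Cyp4a window had a median of 1.58% covered in MT and 1.33% in WT, and tiles of the length of the Cyp2d window had 1.18% and 1.03%. Coverage of the Cyp2d window lay above the upper quartile of these tiles (5.30% in MT, 4.27% in WT), whereas that of the Cyp4a window lay between the median and the upper quartile (5.45% in MT, 4.43% in WT).

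Coverage was higher in MT than in WT in both windows and in 3 of the 4 flanks. MT islands covered 1.33 times the WT length in the Cyp4a window and 1.41 times in the Cyp2d window, against 1.25 times over the whole lists. The Cyp4a ratio rested on few islands and moved with the filter, to 2.22 for false discovery rates up to 1e-05 and to 4.27 at a fold of at least 2, where the whole lists gave 1.29 and 1.18. Without these filters the flanks gave 0.25 on the left and 1.30 on the right of the Cyp4a window, and 1.08 and 1.47 around the Cyp2d window. The unfiltered ratio of the Cyp2d window, 1.41, lay between those of its flanks, and that of the Cyp4a window, 1.33, lay slightly above its right flank.

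**Figure D1:**
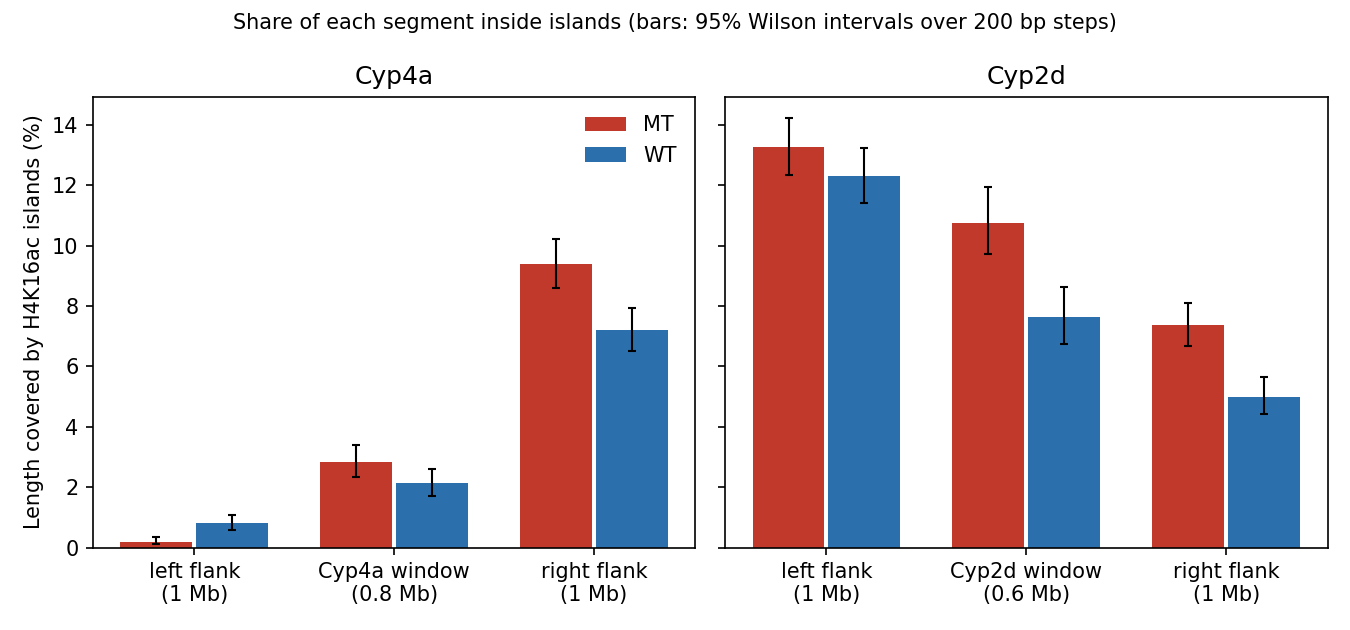
Percent of each window and of its left and right flanks covered by H4K16ac islands, in MT and in WT, with bars from 0 and 95% Wilson intervals. The Cyp2d window reached 10.8% in MT and 7.63% in WT, and its left flank 13.3% and 12.3%. The Cyp4a window reached 2.83% and 2.13%, its left flank 0.20% and 0.80% and its right flank 9.38% and 7.20%.

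The Cyp4a window lay on a boundary between island-poor and island-rich chromatin. Its left flank held 1 island in MT and 3 in WT, and its right flank 33 in MT and 29 in WT. The window held 13 MT islands (exact Poisson interval 6.92 to 22.2) and 7 WT islands (2.81 to 14.4). No island of either list lay in the first 293.2 kb of the window in MT or the first 291.4 kb in WT. Per Mb the window held 0.956 times as many islands as both flanks together in MT (exact binomial interval 0.463 to 1.86) and 0.547 times as many in WT (0.204 to 1.26), and both intervals hold 1. With stricter lists the WT ratio lay below 1, at 0.20 (0.023 to 0.802) for a false discovery rate of at most 1e-05 and at 0.114 (0.0028 to 0.703) for a fold of at least 2.

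**Figure D2:**
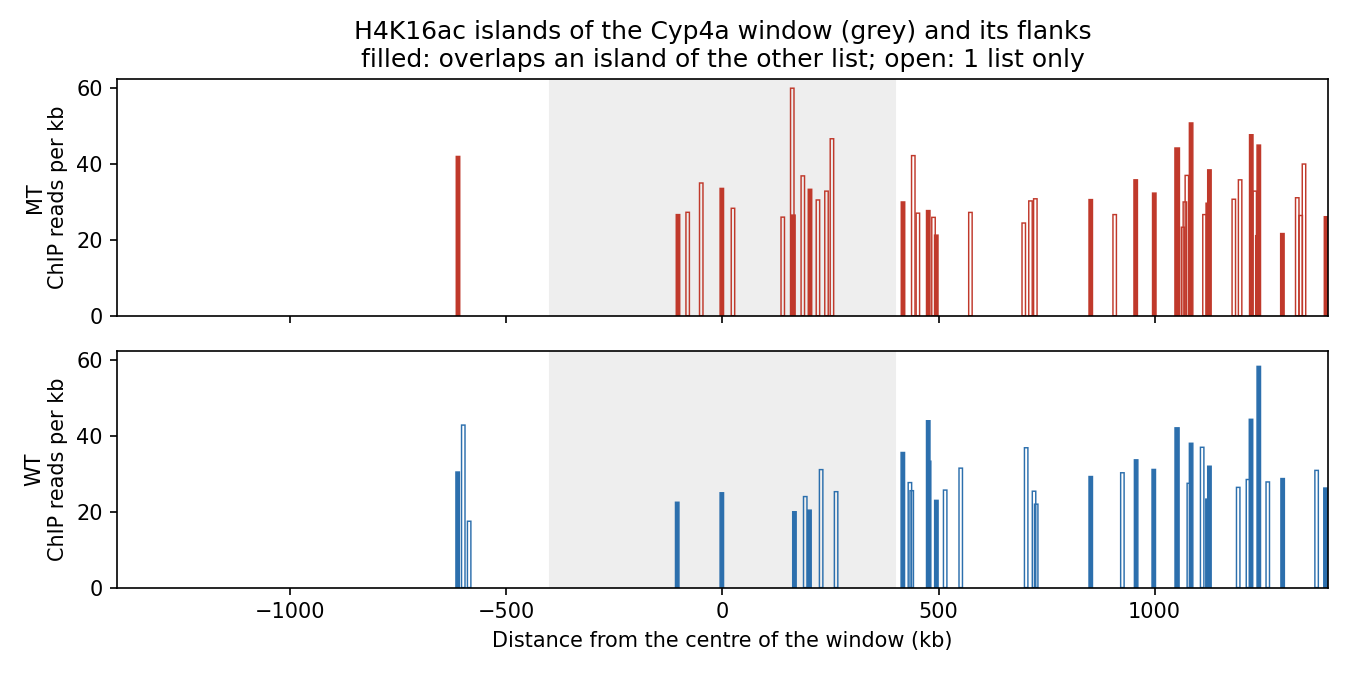
ChIP reads per kb of each H4K16ac island against its distance in kb from the centre of the Cyp4a window (grey), MT above and WT below, with islands that overlap the other list filled and those of 1 list open. Islands shorter than 8 kb are drawn 8 kb wide so that they can be seen; the left flank is nearly empty in both mice and the first island of the window starts 293.2 kb from its edge in MT and 291.4 kb in WT.

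Most MT islands of the Cyp4a window had no WT partner. Of the 13 MT islands, 9 overlapped no WT island (69.2%, Wilson interval 42.4 to 87.3%), where 43.5% of all MT islands did so. Of the 7 WT islands, 3 overlapped no MT island (42.9%, 15.8 to 74.95%), where 35.7% of all WT islands did so. Both intervals hold the share of the whole list. The unmatched islands had a median of 46 ChIP reads in MT, against 58 in those with a partner, and of 56 in WT, against 49.5. A WT island lay within 5 kb of 3 of the 9 unmatched MT islands.

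The largest unmatched MT island of the Cyp4a window, chr4:115317001-115320800, held 116 ChIP reads over 57 input reads, a fold of 1.93. It ended 3.6 kb before the WT island chr4:115324401-115326200, itself without an MT partner, with 56 ChIP reads over 32 input reads and a fold of 1.59. The next, chr4:115015601-115017800, held 60 ChIP reads over 14 input reads, and its fold of 4.06 was the highest in the window. The nearest WT island lay 21.0 kb away. The WT island with the most ChIP reads and no MT partner, chr4:115359001-115362400, held 86 ChIP reads over 53 input reads, a fold of 1.47, and began 9.0 kb past the last MT island of the window.

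The median fold over input in the Cyp4a window was near that of the whole list in MT and below it in WT, where it rested on 7 islands. The median island had a fold of 1.93 in MT and 1.75 in WT, beside 2.02 and 2.08 over the whole lists. The lower quartile of all WT islands was 1.79, but it describes single islands and not a median of 7. A fold of 2 was reached by 6 of 13 MT and 1 of 7 WT islands, where 51.2% of all MT and 55.8% of all WT islands did. Summed over the islands the fold was 2.12 in MT (exact interval 1.85 to 2.43) and 1.79 in WT (1.51 to 2.12), beside 2.05 and 2.09 over the whole lists. Both intervals hold the value of the whole list. Only chr4:115015601-115017800 in MT and chr4:115262601-115264800 in WT reached a fold of 3, that is 1 of 13 and 1 of 7 islands, while 11.6% of all MT and 13.8% of all WT islands did. The WT island had 44 ChIP reads over 13 input reads, a fold of 3.08. Next in fold came chr4:114993201-114996200 (2.91) and chr4:115349401-115350000 (2.41) in MT, and chr4:114991401-114994600 (1.98) and chr4:115297401-115299800 (1.86) in WT.

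Both lists met at 4 places in the Cyp4a window. There the ChIP density (reads per covered kb after scaling to equal depth) was higher in MT at 4 of 4 regions, and at 3 of 4 with ChIP reads over all islands set equal, where 48.5% and 13.8% of all shared regions were higher in MT. Summed over the 4 regions, MT held 236 ChIP reads on 8.2 kb and WT 215 on 9.8 kb, or 28.8 and 21.9 reads per kb. The log2 change was 0.33 (exact interval 0.05 to 0.60), beside a median of -0.01 over all 14719 shared regions. Their middle 50%, from -0.20 to 0.17, is the spread of single regions and does not measure that of a sum over 4. With ChIP reads over all islands set equal the log2 change was 0.027 (-0.25 to 0.30), and with the window widened by 0.1 Mb on each side it was 0.022 (-0.17 to 0.21). With a false discovery rate of at most 1e-05, or with at least 50 ChIP reads per island, 1 shared region was left, with a change of 0.18 (-0.30 to 0.66). A density at least 1.25 times higher in MT was seen at 3 of the 4 regions, where 12.3% of all shared regions passed it, and 17.2% of those with at most 80 ChIP reads in each list, a limit chosen after these counts had been seen. The right flank gave -0.01 over 14 shared regions (-0.11 to 0.09) and the left flank 0.40 at its only shared region (-0.02 to 0.81).

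Much of this difference in density was a difference in covered length. Reads per region, not divided by length, gave a log2 change of 0.07 (-0.20 to 0.34), with 2 of 4 regions higher in MT, where 63.2% of all shared regions were. At chr4:115297401-115299800, the region with the largest increase in density, WT had the larger count, 49 reads on 2.4 kb against 40 reads on 1.2 kb in MT. Its density change was 0.64 (0.00 to 1.27) and its change in reads -0.36 (-0.998 to 0.27).

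The region with the most reads, chr4:114991401-114996200, held 80 ChIP reads over 26 input reads in MT and 72 over 33 in WT, and its density change was 0.18 (-0.30 to 0.66). At chr4:115260201-115264800 the lists overlapped by only 200 bp. MT held 69 ChIP reads over 38 input reads there and WT 44 over 13, so the fold was 1.72 in MT and 3.08 in WT while the density change was 0.34 (-0.22 to 0.92). Input density was higher in MT at this region by more than ChIP density was, with a log2 change of 1.18 (0.24 to 2.21). The third by reads, chr4:115094601-115096600, held 47 ChIP reads in MT and 50 in WT with a density change of 0.36 (-0.25 to 0.96).

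Over the shared regions of the Cyp4a window the input density changed by 0.23 (-0.18 to 0.65), and the part of input in the ChIP difference was not tested.

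The Cyp2d window had many islands on both sides. It held 20 MT islands (exact Poisson interval 12.2 to 30.9) and 19 WT islands (11.4 to 29.7), with 36 MT and 45 WT islands in the left flank and 24 and 18 in the right flank. Per Mb this was 1.11 times the flanks in MT (0.634 to 1.87) and 1.01 times in WT (0.568 to 1.70). Of the MT islands, 7 of 20 had no WT partner (35.0%, 18.1 to 56.7%), and of the WT islands 4 of 19 had no MT partner (21.1%, 8.51 to 43.3%), both below the 43.5% and 35.7% of the whole lists but with intervals that hold them. These intervals also overlap those of the Cyp4a window, and the difference between the windows was not tested. The flanks of the Cyp2d window had 30.6% (left) and 45.8% (right) unmatched in MT, and 31.1% and 16.7% in WT. The right flank of the Cyp4a window had 57.6% in MT and 48.3% in WT.

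**Figure D3:**
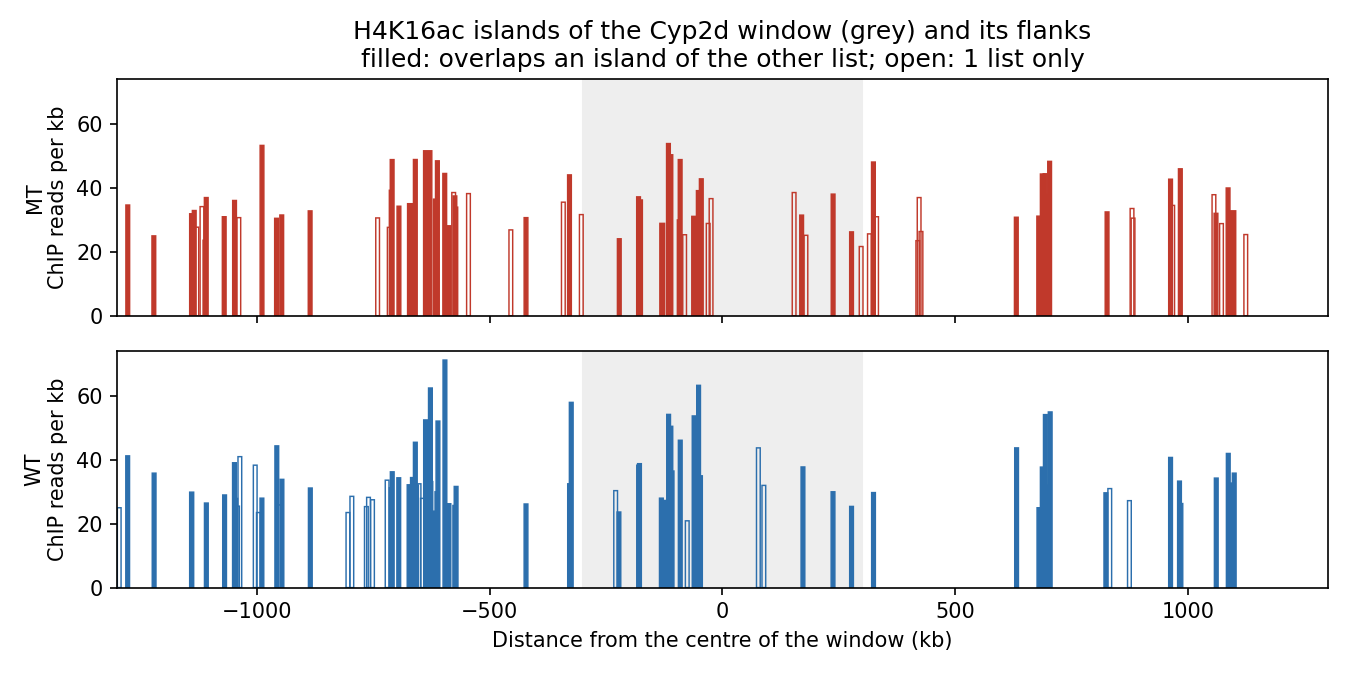
ChIP reads per kb of each H4K16ac island against its distance in kb from the centre of the Cyp2d window (grey), MT above and WT below, with islands that overlap the other list filled and those of 1 list open. Islands shorter than 8 kb are drawn 8 kb wide; islands fill the left part of the window, and the gap of 177.2 kb in MT holds 2 open WT islands.

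Within the Cyp2d window the islands were unevenly spread. The left part carried the densest signal, and a stretch without islands followed it, 177.2 kb long in MT (chr15:82272801-82450000) and 121.2 kb long in WT (chr15:82252001-82373200). The 3 shared regions between 82180001 and 82210600, a stretch of 30.6 kb, had the highest ChIP density among regions with at least 100 reads in each list. They held 764 MT and 518 WT reads, which was 33.6% and 31.8% of all island reads in the window.

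These 3 regions had nearly equal ChIP density in both mice when input density was the measure of depth. At chr15:82180001-82184600, MT held 248 ChIP reads on 4.6 kb and WT 141 on 2.6 kb, or 53.9 and 54.2 reads per kb, a log2 change of -0.07 after scaling (-0.38 to 0.23). At chr15:82185201-82190200 the counts were 252 on 5.0 kb and 174 on 4.0 kb, a change of 0.15 (-0.14 to 0.43). At chr15:82205201-82210600 they were 264 on 5.4 kb and 203 on 4.4 kb, a change of 0.02 (-0.25 to 0.29). In all 3 regions the MT island enclosed the WT island or islands and was longer.

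The fold over input nevertheless differed at the outer regions of this stretch. It was 4.60 in MT and 2.62 in WT at the first, and 4.46 and 2.88 at the last, against 3.14 and 2.77 at the middle region. The input density was lower in MT at the first, with 51 reads on 4.6 kb against 49 on 2.6 kb, a log2 change of -0.89 (-1.48 to -0.29), and at the last, with 56 reads on 5.4 kb against 64 on 4.4 kb, a change of -0.61 (-1.16 to -0.07). At both regions the scaled ChIP density differed between the mice by less than counting error.

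Summed over all islands of the Cyp2d window the fold was 2.29 in MT (exact interval 2.12 to 2.47) and 2.22 in WT (2.03 to 2.44). The whole lists gave 2.05 and 2.09. A fold of 3 was reached by 4 of 20 MT and 2 of 19 WT islands, where 11.6% of all MT and 13.8% of all WT islands did. In MT these were the 3 islands of the dense stretch and chr15:82271601-82272800, which had 44 ChIP reads over 13 input reads (fold 3.20) and no WT partner. In WT they were chr15:82373201-82374000 (fold 3.98) and chr15:82185201-82187200 (fold 3.06), and chr15:82116001-82117200 came next (2.99).

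Over the 12 shared regions of the Cyp2d window ChIP density was nearly the same in both mice. MT held 1818 ChIP reads on 48.0 kb and WT 1433 on 39.0 kb, or 37.9 and 36.7 reads per kb, and the log2 change was -0.02 (-0.12 to 0.08). Density was higher in MT at 5 of 12 regions (48.5% of all shared regions), and at 0 of 12 with ChIP reads over all islands set equal, a scaling that moves every region by -0.30 and under which 13.8% of all shared regions were higher in MT. None of the 12 passed an increase of 1.25 times and 3 passed a decrease of that size, where 12.3% and 14.4% of all shared regions did. The flanks gave 0.05 over 24 regions (-0.02 to 0.11) and 0.02 over 12 regions (-0.08 to 0.12), which is close to the window. The input density of the 12 regions changed by -0.13 (-0.29 to 0.03).

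**Figure D4:**
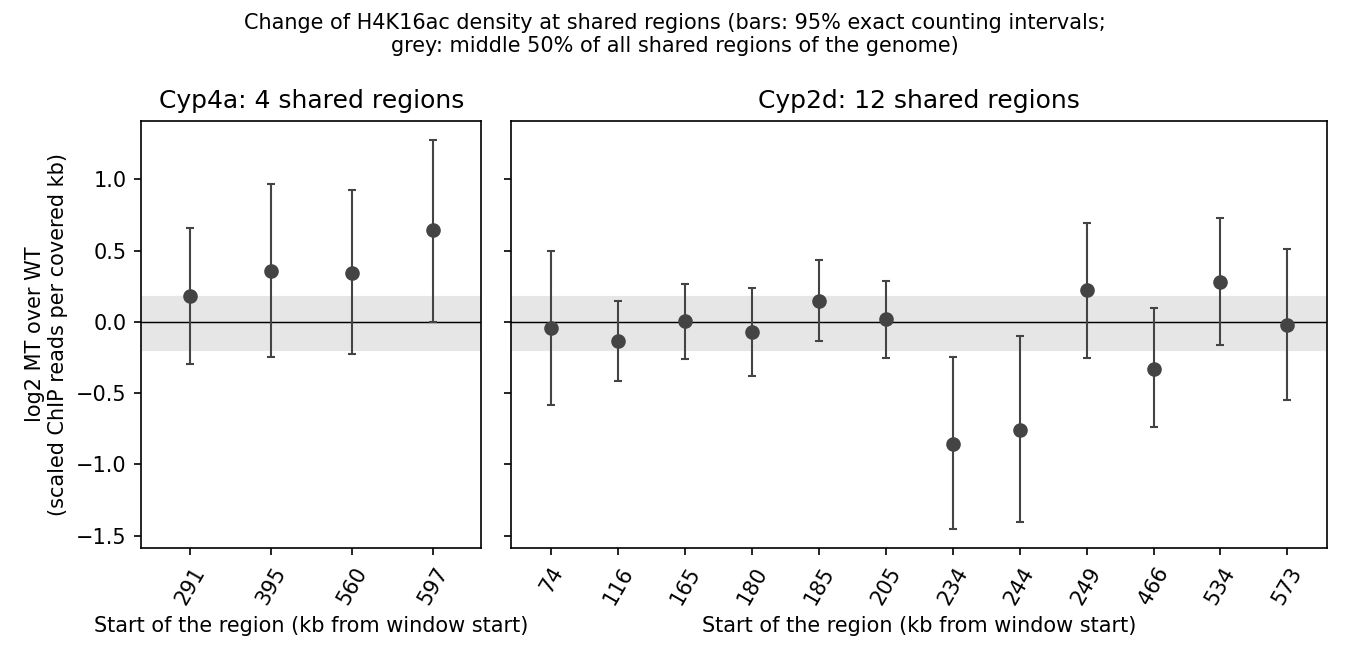
Log2 change of scaled ChIP reads per covered kb, MT over WT, at each shared region of the Cyp4a window (left) and the Cyp2d window (right), ordered by the start of the region in kb from the window start, with 95% exact counting intervals and the middle 50% of all shared regions in grey. The 4 Cyp4a regions lie between 0.18 and 0.64, of which 3 stay above 0 with ChIP reads over all islands set equal, and the 12 Cyp2d regions lie between -0.85 and 0.28, of which none does.

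Counts per region went another way than density, because the MT islands were longer at 7 of the 12 regions. In reads per region 8 of 12 were higher in MT, where 63.2% of all shared regions were. The log2 change was 0.28 (0.18 to 0.38), beside 0.20 over all shared regions. The interval lay above 0 at 5 of the 12 regions and below 0 at 2, where 32.6% and 13.4% of all shared regions had such intervals. Density and reads per region had opposite signs at 5 of the 12.

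The region with the most reads, chr15:82164801-82175800, showed this. A single MT island of 10.2 kb with 295 ChIP reads overlapped 2 WT islands with 204 reads on 7.4 kb, of which it covered 89.2%, so that reads per region changed by 0.47 (0.20 to 0.73) and density by 0.00 (-0.26 to 0.27). At chr15:82466201-82472200, MT held 189 ChIP reads on 6.0 kb and WT 68 on 1.8 kb. Reads per region were higher in MT there, with a log2 change of 1.41 (1.002 to 1.83), while density changed by -0.33 (-0.73 to 0.09), the lowest among regions with at least 50 reads in each list. In the other direction, chr15:82248801-82252000 held 60 reads on 1.4 kb in MT and 112 on 3.2 kb in WT, which is -0.97 in reads (-1.44 to -0.50) and 0.23 in density (-0.25 to 0.69).

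Among regions with at least 50 reads in each list the largest increase in density was at chr15:82533601-82536400, where both lists covered 2.6 kb, with 99 ChIP reads in MT and 78 in WT and a change of 0.28 (-0.16 to 0.73). The second lowest was chr15:82115801-82122800, with 192 reads on 5.2 kb in MT and 240 on 6.2 kb in WT, a change of -0.13 (-0.42 to 0.15). None of these intervals excludes 0 for density.

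The density intervals that did exclude 0 belonged to 2 of the 12 regions, both with short WT islands (15.2% of all shared regions had such an interval), which are named here after their values had been seen. At chr15:82234201-82236000, MT held 56 ChIP reads on 1.8 kb and WT 43 on 0.8 kb, a density change of -0.85 (-1.45 to -0.25). At chr15:82244201-82245400 the counts were 47 on 1.2 kb and 38 on 0.6 kb, a change of -0.76 (-1.41 to -0.10). Reads per region changed by 0.32 (-0.28 to 0.92) and 0.24 (-0.41 to 0.90) at the same places, so the direction depended on whether length was divided out.

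Of the islands of 1 list in the Cyp2d window, 3 of 7 in MT and 2 of 4 in WT lay within 5 kb of an island of the other list. The largest in MT, chr15:82475401-82481000, held 141 ChIP reads over 85 input reads (fold 1.57) and lay 4.6 kb from a WT island. Next came chr15:82214801-82217600 with 71 over 36 reads (fold 1.87), 2.8 kb from a WT island. In WT the largest were chr15:82066601-82069400 with 85 over 37 reads (fold 2.09) and chr15:82220401-82222600 with 46 over 23 reads (fold 1.82), at 5.0 and 2.8 kb from an MT island.

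A pair of WT islands stood apart from this. At chr15:82373201-82374000, WT held 35 ChIP reads over 8 input reads, and at chr15:82385001-82386000 it held 32 over 15 (fold 1.94). They lay 76.0 and 64.0 kb from the nearest MT island, inside the stretch of 177.2 kb that was free of MT islands. Both counts are small beside the median WT island of 63 ChIP reads. The lists give no reads outside islands, so a weaker MT signal at these places was not detectable here.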

How the data were processed

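H4K16ac ChIP and input libraries were made from liver chromatin of 1 MT and 1 WT mouse, 4 libraries in all. The submitters' processing notes name Bowtie 0.12.7, SICER 1.03 and mm8. The authors removed duplicate reads, counted reads in windows of 200 bp, joined windows over gaps of up to 400 bp and called islands per mouse at a false discovery rate of 0.001. The deposited counts are whole ChIP and input reads per island, and the deposited fold is their ratio once the libraries are scaled to equal size. The authors' p-value of each island was not used, and its adjusted p-value (the false discovery rate) served only as a filter. Library totals are not part of the lists. Of the deposited lists, columns of 2 ChIP and 2 input libraries entered.

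The window limits, the 7 genes and the alternatives were chosen with earlier results of these data known. Islands overlapping by at least 1 bp between the lists were merged into shared regions. ChIP library sizes were compared through the fold and through the input reads per covered kb in all shared regions, which takes input density there as a measure of depth. Changes are log2 ratios of ChIP reads per covered kb with exact binomial intervals. A region was counted as higher or lower at a ratio of 1.25. Islands of the windows held 28 to 295 ChIP reads, and reads are not independent molecules, so intervals cover counting error only. Named in each window were the 3 shared regions with the most ChIP reads, the 3 islands per list with the highest fold, the 2 shared regions with the largest change in each direction among those with at least 50 ChIP reads in each list, and the 2 islands per list with the most ChIP reads and no partner; other items are marked in the text. Biopython 1.88 (alignment of upstream sequences), matplotlib 3.10.9, scipy 1.17.1, pandas 2.3.3 and numpy 2.4.6 were run under Python 3.11.15, and the computations were checked on simulated data. RefSeq tables of GRCm38.p6 gave gene order and upstream sequence. The alternatives were stricter filters, other window and flank limits, another overlap, another scaling and reads per region.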

Additional observations from a re-analysis of the deposited data

How the results depend on the processing

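Of 63 values recomputed under alternatives, 38 stayed within the interval of the value reported and 25 moved out of it. With a false discovery rate of at most 1e-05, coverage of the Cyp4a window was 1.50% in MT and 0.68% in WT and that of the Cyp2d window 9.17% and 4.90%, WT islands per Mb in the Cyp4a window were 0.20 times the flanks, and the density change in the Cyp2d window was -0.12. With a fold of at least 2 the same coverages were 1.18%, 0.28%, 6.27% and 4.00%, the WT ratio to the flanks was 0.11 (both WT ratios have intervals below 1), and no shared region was left in the Cyp4a window, so that its change had no value. With at least 50 ChIP reads coverage was 1.90% in MT and 1.30% in WT for the Cyp4a window and 6.53% in WT for the Cyp2d window. Widening the Cyp4a window by 0.1 Mb on each side gave 4.14% in MT and 2.78% in WT, and took its density change to 0.022. Narrowing by 0.1 Mb gave 3.77% and 2.83% for the Cyp4a window and 13.8% and 8.75% for the Cyp2d window. With ChIP reads over all islands set equal the density change was 0.027 in the Cyp4a window and -0.32 in the Cyp2d window. In the Cyp2d window pairs that overlap by 50% or more of each island gave 0.083 (-0.07 to 0.24) and reads per region 0.28. The change in the Cyp2d window had intervals that exclude 0 in 3 settings, in opposite directions. These were equal ChIP reads (-0.42 to -0.22), the stricter false discovery rate (-0.25 to -0.002) and reads per region (0.18 to 0.38).

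Coverage stayed higher in MT than in WT in both windows under each filter and limit tried. The density change of the Cyp4a window rests on 4 regions of at most 80 ChIP reads in each list. Its interval held 0 under equal ChIP reads, reads per region (0.07) and the widened window, and under the stricter false discovery rate and the minimum of 50 ChIP reads, which left 1 region (0.18) and are counted among the 38. The interval stayed above 0 for pairs that overlap by 50% or more of each island, at 0.51 (0.07 to 0.94) over 2 regions. The narrowed window kept the same 4 regions and gave 0.33 (0.05 to 0.60). With 1 library per genotype the spread between mice is unknown. No paired analysis was possible because each genotype has 1 ChIP and 1 input library and no result comes from a test.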
